A study of Mus musculus with 16 samples.

Results

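T zone reticular cells without the Thbs4 program were described here across naive mouse lymph nodes and nodes of mice given live or fixed tumor cells. A cell was taken as a member when it met all of the following limits. It passed the limits on genes and mitochondrial reads and had at least 2000 UMIs (unique molecular identifiers, each 1 counted RNA molecule). It held at most 1 UMI each of Ptprc and Pecam1 and at least 2 UMIs of the fibroblast genes Col1a2, Pdgfra and Pdgfrb summed. It had at least 3 UMIs of Stmn2, Fmod, Igfbp2 and Slc7a11 summed. That sum was above each of the sums over the marker genes of medullary, adventitial, marginal and follicular stroma. It also held fewer than 2 UMIs of Il13ra2, Thbs4 and Stc2 summed. This rule found 1951 cells among 10901 gated fibroblastic cells, 50386 cells within the limits on genes and mitochondrial reads and 68741 barcodes in all. The 1189 T zone cells with 2 or more UMIs of Il13ra2, Thbs4 and Stc2 are called T zone cells with the Thbs4 program, and the rule placed 2111 cells with medullary reticular cells, 2164 with marginal reticular cells, 653 with adventitial Pi16+ cells and 135 with follicular dendritic cells.

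T zone reticular cells are the fibroblasts that build the conduit network of the lymph node paracortex. They secrete CCL21 and CCL19, the ligands of CCR7 that draw naive T cells and dendritic cells into the T zone, and interleukin 7, on which T cells depend for survival. They also make and remodel the collagen-rich matrix around the conduits and can contract, which sets the tension of the node when it swells.

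The study asked how a growing tumor alters the stroma of its draining node and which of those changes also follow tumor antigen without living tumor cells. Groups were made up of 8-week-old, sex-matched C57Bl/6 mice that were naive or had received 500000 live or paraformaldehyde-fixed MC38 cells, a mouse colon carcinoma line, under the skin of the lower right flank. The draining inguinal node and the contralateral non-draining inguinal node were taken on day 12. Nodes were digested with enzymes, stroma was enriched by PDPN (podoplanin) and single cells were profiled by droplet 3' sequencing. There were 4 naive libraries (A to D) and 3 libraries (A to C) from draining and from non-draining nodes for each inoculum, and the control for each draining group was the opposite node of mice that carried the same inoculum. The methods give 3 mice per inoculum, and the labels do not say which libraries share a mouse, so p-values measure the spread between libraries.

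Libraries held 18 to 249 members. Naive libraries held 142, 124, 108 and 110 members, the live draining libraries 240, 249 and 173, the live non-draining libraries 95, 39 and 50, the fixed draining libraries 179, 175 and 151, and the fixed non-draining libraries 49, 49 and 18. Counts of the members were summed per library to 142057 to 2737366 UMIs, and the median member held 10126 UMIs. Fixed non-draining library C stood apart, with 18 members, a median of 6280.5 UMIs per member and a median mitochondrial share of 6.68%, against 2.70 to 4.25% in the other libraries. Of the 1951 members, 19 (0.974%) carried a cell barcode that also occurred in another library, and no barcode was a member in more than 1 library. The counting intervals below cover counting error only, and no doublet caller was run beyond the limits on Ptprc and Pecam1. Levels are given as CPM, the UMIs of a gene per 1000000 UMIs summed over the cells of a class in a library. Where groups of libraries are compared, CPM per library are per 1000000 UMIs in the genes tested after TMM scaling of the library totals (edgeR), so these differ somewhat from the unscaled CPM given for classes, for cells near the thresholds and for marker sums. Because the sums pool single cells, a change in the RNA of each cell and a change in the fraction of cells that hold it cannot be told apart from them.

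Members were chosen by the UMIs of the genes of the rule, which are described with no test. At least 1 UMI of Fmod, a small collagen-binding proteoglycan, was found in 86.2% of members, of Stmn2, a microtubule-binding protein, in 61.9%, of the cystine transporter gene Slc7a11 in 44.5% and of Igfbp2 in 31.1%, and the median sum of these 4 genes was 10 UMIs. The 213 members just inside the threshold, with a sum of 3, held 9839 CPM of Ccl21a, whereas the 261 cells just outside, with a sum of 2, held 8713 CPM, so that the marker level changed little across the threshold. The 986 members with a sum of 10 or more held 25927 CPM. On the Thbs4 side, the 1451 members with no UMI of Il13ra2, Thbs4 and Stc2 held 18203 CPM of Ccl21a and the 500 members with 1 UMI held 28233 CPM. Just outside, the 271 cells with 2 such UMIs held 33541 CPM, and the 319 cells with 10 or more held 42254 CPM of Ccl21a and 11422 CPM of Ccl19. Ccl21a therefore graded across this threshold as well, with no step at the limit that was used. The limit was set in raw UMIs, and T zone cells with the Thbs4 program held a median of 16030 UMIs, against 10126 in members. The part of depth in the differences between these classes was not tested.

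The members were not uniform in the gene that led the T zone sum. Fmod was the highest of the 4 genes in 748 members, Stmn2 in 665, Slc7a11 in 293 and Igfbp2 in 137, and 108 members were tied. Members led by Slc7a11 held 4434 CPM of Cxcl13, the CXCR5 ligand of B cell follicles, against 501 CPM in members led by Stmn2, and had fewer UMIs per cell (median 4868 against 11382) and a higher median mitochondrial share (6.76% against 3.06%). Members led by Stmn2 held 26771 CPM of Ccl21a and 412 CPM of Il7, and members led by Fmod 17825 and 264 CPM. Inmt, a methyltransferase gene listed here with medullary markers, stood at 243 CPM in members led by Fmod and 75.6 CPM in those led by Stmn2. Igfbp2 led 12.4% of live draining members, 2.17% of live non-draining members and 4.13% of naive members, so the rule drew on Igfbp2 more often in live draining nodes.

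The markers that the rule did not use carried the label of T zone reticular cells. Ccl21a, on which reads from the near-identical Ccl21b and Ccl21c cannot be separated, averaged 22417 CPM over 16 libraries (range 14667 to 34359), and Ccl19 averaged 2595 CPM (range 1904 to 4820.1). Ccl21a stood at 1983 CPM in medullary reticular cells and was higher in members in 16 of 16 libraries, by 3.58 ± 0.49 on the log2 scale (SD, n = 16). Against marginal reticular cells the difference was 4.13 ± 0.71 for Ccl21a and 2.87 ± 0.59 for Ccl19 (SD, n = 16), again in 16 of 16 libraries. Members were thus the lower of the T zone classes but far above the other stroma. T zone cells with the Thbs4 program held 39721 CPM of Ccl21a and 7942 CPM of Ccl19, and members were lower in 16 of 16 libraries, by -0.85 ± 0.27 and -1.62 ± 0.28 (SD, n = 16). These differences lie along the contrast that defined the classes and are given without a test.

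Other niche factors separated the members in a different order. Cxcl12, the CXCR4 ligand that is abundant in perivascular and medullary stroma, averaged 7975 CPM in members, 3342 CPM in T zone cells with the Thbs4 program and 9808 CPM in medullary cells. Il7 averaged 327 CPM in members, 219.7 CPM with the Thbs4 program and 124 CPM in medullary cells. Grem1, a BMP antagonist of T zone fibroblasts, did not separate the T zone classes, at 453 and 513 CPM. Bst1 averaged 426 CPM in members and 729 CPM with the Thbs4 program, and Cxcl13 averaged 846 CPM in members. The plot of markers by class shows that the members combine high Ccl21a with high Cxcl12.

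**Figure D1:**
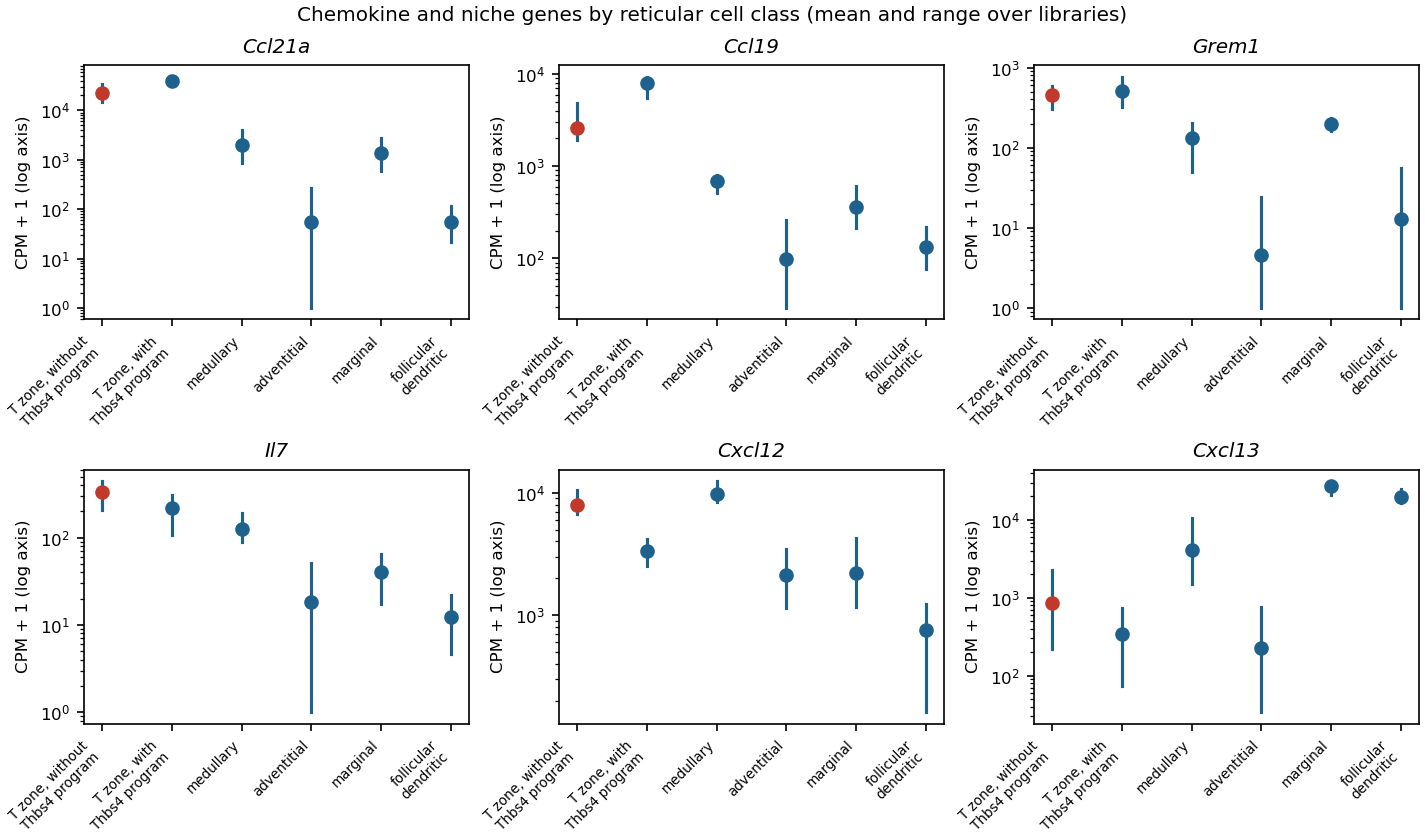
Levels of Ccl21a, Ccl19, Grem1, Il7, Cxcl12 and Cxcl13 in 6 stromal classes, as CPM + 1 on a log axis, with the mean over libraries as a point and the range as a line. Members lie below T zone cells with the Thbs4 program for Ccl21a and Ccl19, above them for Cxcl12, and above the medullary class for Ccl21a, Ccl19 and Il7.

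The genes that stood highest in members against every other class compared were moderate in level. They are listed by the median, over 14 libraries with enough cells in each class, of the log2 difference from the highest other class, and as a description they carry no test. Cxadr, the coxsackievirus and adenovirus receptor, a cell adhesion molecule, led with a median of 1.11 and averaged 306 CPM in members against 114 CPM in T zone cells with the Thbs4 program and 125 CPM in medullary cells, and it was highest in members in 14 of 14 libraries. Nxph1, a secreted neurexin ligand, followed at 1.09 (58.9 CPM), also in 14 of 14. Il7 and Tnfsf13b, which encodes the B cell survival factor BAFF, were highest in members in 14 of 14 libraries by 0.52 and 0.43. The other 11 were Sema3f, Fam180a, Npy1r, Ccl7, Elmo1, Ltc4s, Apol11b, Fign, Lrp5, Gm21955 and Fam174b, by 0.37 to 0.92 and in 8 to 13 of 14 libraries. Lymphocyte survival factors, a semaphorin and a neuropeptide Y receptor were thus among the genes highest in members.

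The share of gated fibroblastic cells that were members is given as a description, since Igfbp2 enters the rule and differed between groups. It was 14.9 ± 0.738% in naive nodes (SD, n = 4), 19.2 ± 0.573% after live tumor in draining and 15.1 ± 1.86% in non-draining nodes, and 21.2 ± 0.737% after fixed cells in draining and 17.6 ± 5.80% in non-draining nodes (SD, n = 3 each). The 3 live draining libraries ran from 18.8 to 19.8% and the 3 live non-draining libraries from 13.5 to 17.1%, without overlap, whereas fixed draining (20.3 to 21.6%) lay inside the fixed non-draining range (11.4 to 22.9%). When each cell was thinned to 2000 UMIs before the rule was applied, the means were 11.9, 13.9, 14.5, 19.4 and 14.5% in the same order, and the live draining libraries (13.0 to 14.9%) lay inside the live non-draining range (12.8 to 16.3%), while fixed draining (18.6 to 20.1%) lay above fixed non-draining libraries (13.0 to 15.3%) without overlap. The separation in the live mice was thus not seen with the rule applied after thinning, and that in the fixed mice was seen there and not with all UMIs. The limits of the rule stayed the same after thinning. Members could fall below the sum of 3, and T zone cells with the Thbs4 program could fall below 2 UMIs of it and be counted as members. The thinned shares therefore do not cover the same class, and its share at equal depth was not tested. Among T zone cells of both kinds, members made up 67.6 to 71.8% in live draining, 49.4 to 56.5% in live non-draining, 56.7 to 67.3% in naive, 57.9 to 61.0% in fixed draining and 45 to 67.1% in fixed non-draining libraries.

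**Figure D2:**
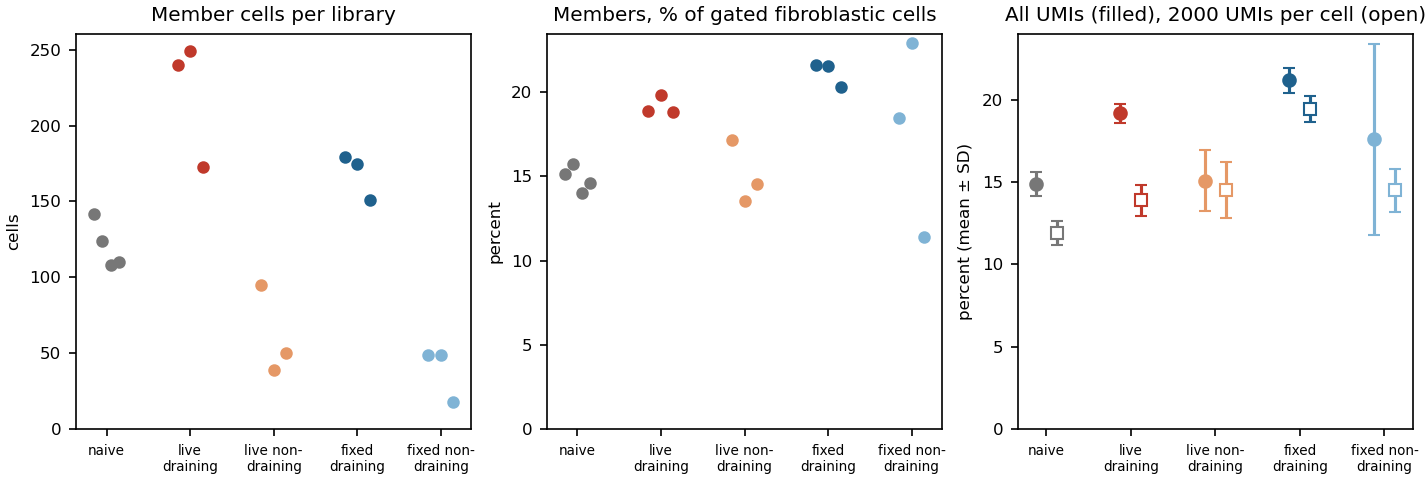
Members per library, their share of gated fibroblastic cells in percent per library, and group means ± SD of that share with all UMIs and with cells thinned to 2000 UMIs. Draining libraries hold the most members, and the live draining share falls from 19.2% to 13.9% when cells are thinned before the same limits are applied.

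Members of live tumor-draining nodes expressed more of many matrix genes, and less of immediate early genes, heat shock chaperones and genes induced by interferon-γ, than members of the opposite node. In live draining against live non-draining nodes, 460 of 10931 genes tested passed an adjusted p of 0.05 (4.21%), 233 higher (2.13%) and 227 lower (2.08%), by edgeR's quasi-likelihood test with Benjamini-Hochberg adjustment over all genes. Genes that passed are said to have risen or fallen, and changes are log2 values of draining over non-draining. The median change over all genes was 0.00, and 2574 genes (23.5%) had no overlap between the 2 groups of libraries. Genes named for the size of their change between groups had to show no overlap, so for these its absence adds no support. The number that passed fell to 286 without live non-draining library C and to 301 without live non-draining library B. Fixed draining nodes were compared with fixed non-draining nodes in the same fit, and the values are given further on.

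**Figure D3:**
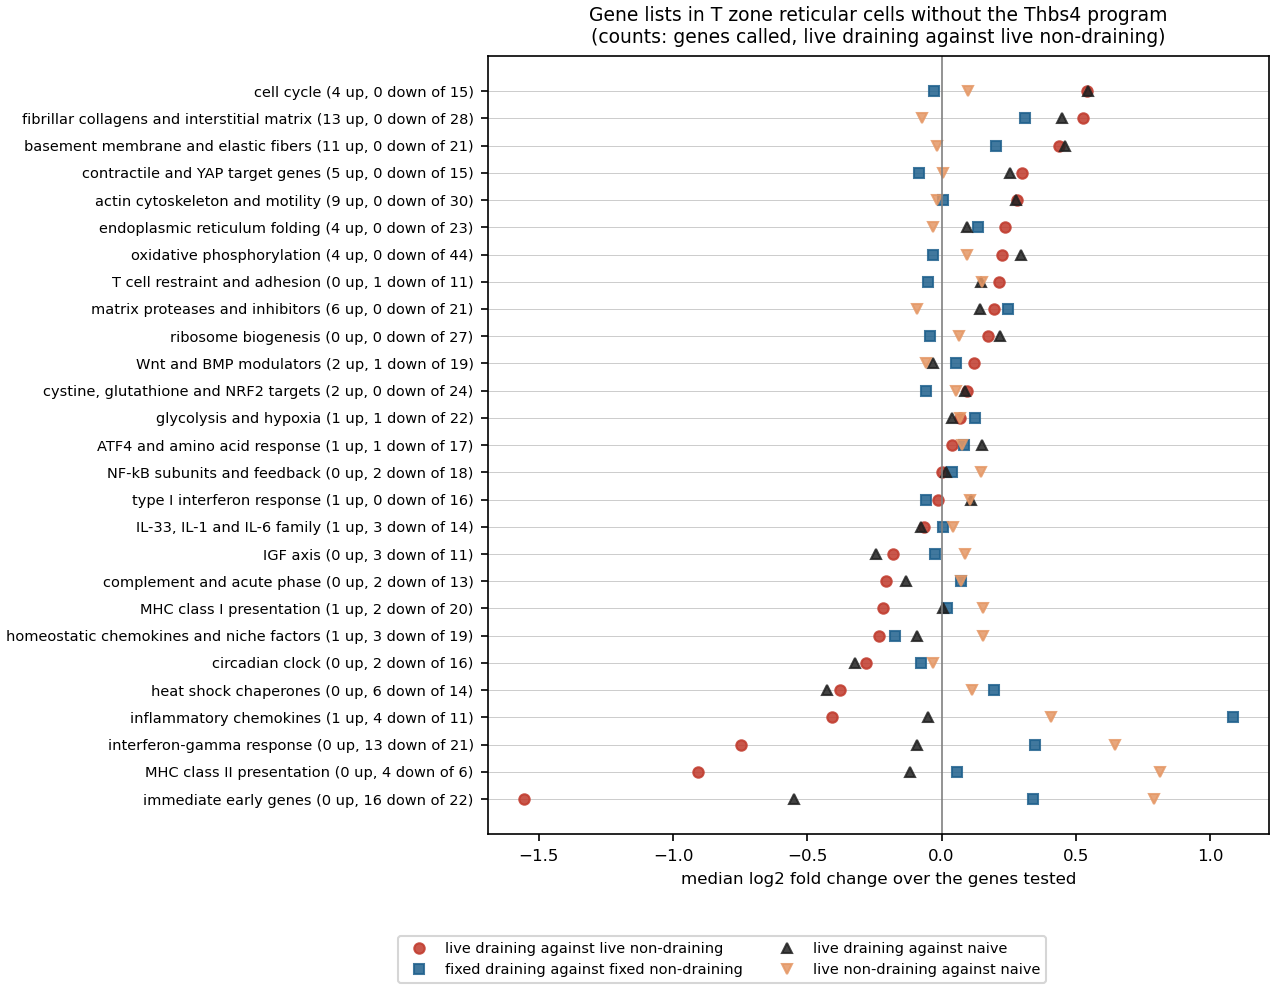
Median log2 fold change of each gene list in members, for live draining against live non-draining, fixed draining against fixed non-draining, and live draining and live non-draining against naive. Labels carry the number of listed genes that passed the test in the live comparison, and the immediate early list, with a median of -1.56, lies lowest in the live comparison.

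Many matrix genes rose. Of 28 fibrillar collagen and interstitial matrix genes tested, 13 rose and none fell (median 0.53), and of 21 basement membrane and elastic fiber genes 11 rose and none fell (median 0.44). Sparc, a collagen-binding glycoprotein that takes part in collagen assembly, stood at 4039, 3816 and 3648 CPM in the live draining libraries and 1882, 1623 and 1439.6 CPM in the live non-draining libraries. Every draining library was above every non-draining library, and the naive libraries, at 1721, 1775, 1968 and 1664 CPM, lay with the non-draining ones. The log2 difference was 1.21 ± 0.09 (SE), adjusted p = 9.0e-12. Col1a1 and Col3a1, the main fibrillar collagens, rose by 0.87 ± 0.11 (SE, adjusted p = 6.1e-07) and 0.98 ± 0.10 (SE, adjusted p = 1.4e-08). Fn1, which encodes fibronectin, rose by 0.58 ± 0.11 (SE, adjusted p = 0.00085), and Lum, a proteoglycan that spaces collagen fibrils, by 1.14 ± 0.22 (SE, adjusted p = 0.0012). Adventitial Pi16+ cells held 8214 CPM of Col3a1 against 1787 CPM in members (means over 14 and 16 libraries), and the 6 adventitial markers, 3 of them used by the rule, none at 0 and Cd34 leading, summed to 33.4 to 66.9 CPM in live draining and 18.3 to 30.1 CPM in live non-draining members, without overlap. Their part in the matrix result was not tested.

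Elastic fiber genes were among the largest rises named. Fbn2, a fibrillin of developing microfibrils, stood at 64.7, 53.3 and 64.9 CPM in the live draining libraries and 6.32, 18.8 and 15.3 CPM in the live non-draining libraries, with no overlap, and differed by 2.37 ± 0.26 (SE), adjusted p = 7.8e-08. Fbln5, which links elastin to microfibrils, stood at 53.5, 53.7 and 50.1 CPM in the live draining libraries and 21.1, 14.1 and 21.1 CPM in the live non-draining libraries. All 3 draining libraries were higher, by 1.43 ± 0.22 (SE), adjusted p = 5.7e-05. Eln, elastin itself, rose by 0.90 ± 0.12 (SE, adjusted p = 3.9e-06). Podn, a small leucine-rich proteoglycan, and C1qtnf6, a secreted collagen-domain protein, rose by 1.5 ± 0.21 (SE, adjusted p = 1.1e-05) and 1.40 ± 0.15 (SE, adjusted p = 4.0e-08), and Lxn, a carboxypeptidase inhibitor, by 1.48 ± 0.22 (SE, adjusted p = 3.1e-05). The naive libraries held 19.2, 28.7, 18.9 and 19.2 CPM of Fbn2, above every live non-draining library and below every live draining library.

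Of 21 matrix proteases and inhibitors tested, 6 rose and none fell (median 0.20). Mmp3, stromelysin 1, stood at 241, 270.0 and 312 CPM in the live draining libraries and 139, 98.9 and 44.0 CPM in the live non-draining libraries, and the groups did not overlap and differed by 1.44 ± 0.26 (SE), adjusted p = 0.00042. Mmp2, a gelatinase made mainly by fibroblasts, rose by 0.88 ± 0.15 (SE, adjusted p = 0.00018). Mmp9 was low, at 29.6, 15.5 and 32.2 CPM in live draining libraries and 32.7, 14.1 and 15.3 CPM in live non-draining libraries, and its difference of 0.12 ± 0.34 (SE, adjusted p = 0.92) did not pass the test. The contractile list had 5 of 15 genes higher and none lower (median 0.30), 3 of them without live non-draining library C. Acta2, smooth muscle actin, stood at 672, 992 and 732 CPM in the live draining libraries and 367, 568 and 232 CPM in the live non-draining libraries, apart in all 3 libraries of each, and rose by 1.07 ± 0.22 (SE, adjusted p = 0.0024). Tagln, an actin-binding protein of contractile cells, rose by 1.03 ± 0.14 (SE, adjusted p = 6.2e-06). Of 30 actin cytoskeleton genes, 9 rose and none fell (median 0.28), among them Anxa2 (0.86, adjusted p = 1.8e-05), an annexin, and Lgals1 (0.78, adjusted p = 1.5e-07), galectin 1. Marker genes of pericytes, which also hold contractile genes, summed to 1061 to 1133 CPM in live draining and 1219 to 1362 CPM in live non-draining members, with Rgs5 leading, and their part in this result was not tested.

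Cell cycle genes were rare but higher in live draining members. Of 15 tested, 4 rose and none fell (median 0.54), and only 1 passed without live non-draining library A. Stmn1, a microtubule regulator of dividing cells, stood at 58.0, 53.3 and 44.6 CPM in the live draining libraries and 16.9, 16.5 and 15.3 CPM in the live non-draining libraries, with no overlap, and rose by 1.68 ± 0.27 (SE, adjusted p = 0.0001). Top2a, the topoisomerase of replicating DNA, was counted 109 times in live draining members and 1 time in live non-draining members, a ratio per UMI total of 27.9 (95% counting interval 4.90 to 1112), and lost its call without any 1 of 5 libraries. Mki67 was counted 78 and 4 times, a ratio of 4.99 (1.87 to 18.8). Of 44 oxidative phosphorylation genes 4 rose (median 0.22), a count that ran from 2 without live draining library B to 11, and of 22 glycolysis and hypoxia genes 1 rose and 1 fell. Ldha, lactate dehydrogenase A, rose by 0.62 ± 0.12 (SE, adjusted p = 0.0013), whereas Pkm, pyruvate kinase, differed by -0.02 ± 0.13 (SE, adjusted p = 0.96).

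Immediate early genes, the first transcription factors and feedback regulators a stimulated cell makes, were lower in live draining members than in live non-draining members. Of 22 tested, 16 fell and none rose (median -1.56). Fos, a subunit of the AP-1 factor, stood at 159.7, 162 and 166 CPM in the live draining libraries and 719.5, 777 and 1216 CPM in the live non-draining libraries. Each draining library was below each non-draining library, and naive libraries lay between them at 558, 483, 444 and 415 CPM. The difference was -2.47 ± 0.17 (SE), adjusted p = 1.7e-12. Fosb, a related AP-1 subunit, fell by 2.75 ± 0.20 on the log2 scale (SE, adjusted p = 5.0e-12), and Nr4a1, an orphan nuclear receptor, differed by -2.84 ± 0.23 (SE, adjusted p = 3.4e-11). Zfp36, which promotes decay of cytokine mRNA, differed by -2.47 ± 0.17 (SE, adjusted p = 2.4e-12), and Atf3 and Egr1 by -3.18 and -2.01. At an equal depth of 2000 UMIs per cell, a Fos UMI was found in a median of 16.9% of members per live draining library and 41.0% per live non-draining library. B cells of the same libraries, taken as cells with at least 3 UMIs of B cell markers and no fibroblast UMI, held a Fos UMI in 13.6% and 10.3%, at a median of 5073 UMIs per cell before thinning. Before thinning the medians were 35.8% and 66.7% of members, and every member had the 2000 UMIs needed. In B cells the draining median was not the lower one. The part of enzyme digestion and handling of the nodes in the fall of immediate early genes was not tested.

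Some of the heat shock chaperones fell. Of 14 tested, 6 fell and none rose, and 3 had a positive change (median -0.38). Hspa1b, an inducible HSP70 whose transcript is nearly identical to that of Hspa1a, stood at 165, 145 and 148 CPM in the live draining libraries and 1086, 834 and 1162 CPM in the live non-draining libraries, and at 909, 798, 703 and 789 CPM in naive libraries. Live draining libraries lay below all live non-draining and naive libraries, and the difference from live non-draining was -2.76 ± 0.15 (SE), adjusted p = 1.5e-15. The fixed draining and fixed non-draining libraries, given further on, lay above the live draining and below the naive libraries. Hspa1a differed by -2.58 ± 0.13 (SE, adjusted p = 2.3e-16), and Dnajb1, the HSP40 partner of HSP70, by -2.53 ± 0.27 (SE, adjusted p = 6.1e-08). Hsph1, an HSP110 exchange factor, and Hsp90aa1 differed by -1.42 and -0.65. The part of digestion and handling in these falls was not tested either. An Hspa1b UMI was found in 16.9% of members at 2000 UMIs in live draining libraries, against 45.3% in live non-draining ones (medians), or 47.0% and 69.5% before thinning, and in 12.9% and 20.5% of B cells at 2000 UMIs, where the draining median was the lower as well.

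Genes induced by interferon-γ were lower in the live draining members. Of 21 tested, 13 fell and none rose (median -0.75), 7 of them without live draining library B. Igtp, an immunity-related GTPase, stood at 25.1, 30.3 and 34.2 CPM in the live draining libraries and 104, 51.8 and 103 CPM in the live non-draining libraries, the draining libraries all lower, and differed by -1.63 ± 0.25 (SE), adjusted p = 4.7e-05. Gbp4, Gbp6, Tgtp2, Irgm1 and Irf1 fell as well, by 1.65, 1.79, 1.16, 0.81 and 0.75 on the log2 scale. MHC class II genes, which interferon-γ induces in stroma, fell in 4 of 6 (median -0.91), 2 of them without live non-draining library C. Cd74, the invariant chain, stood at 208, 241 and 204 CPM in the live draining libraries and 333, 332 and 593 CPM in the live non-draining libraries and differed by -0.93 ± 0.16 (SE), adjusted p = 0.0002. Without live non-draining library C the difference of Cd74 was -0.61 and still passed. H2-Aa, the class II α chain, differed by -1.28 ± 0.24 (SE, adjusted p = 0.00085), and by -0.70 without live non-draining library C, when it did not pass. Non-draining library C was the highest for it, at 172 CPM against 69.5 and 49.5 CPM. B cells and myeloid cells also carry class II transcripts, and their marker lists summed to 43.0 to 57.4 and 281 to 325 CPM in live draining members and 29.8 to 131 and 126 to 355 CPM in live non-draining members, with Ighm and Plac8 leading and none of the 6 and 9 markers at 0 over all libraries. Their part in this result was not tested.

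The type I interferon list did not follow, with 1 of 16 genes higher and none lower (median -0.01). That gene, Ifi27l2a, an interferon-inducible mitochondrial protein, stood at 146, 165 and 209 CPM in the live draining libraries and 34.8, 2.36 and 23 CPM in the live non-draining libraries, and at 16.5, 38.2, 54.0 and 60.1 CPM in naive libraries. Live draining libraries were above all others of these groups, by 2.83 ± 0.32 (SE), adjusted p = 1.0e-07 against non-draining. At 2000 UMIs per cell a median of 12.1% of live draining members (34.5% before thinning) held an Ifi27l2a UMI, against 49.8% of the B cells in those libraries, and the values in live non-draining libraries were 2.56% of members (6.0% before thinning) and 28.9% of B cells. The share in members was thus below that in B cells, and the part of free RNA in this rise was not tested.

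Inflammatory chemokines were mostly lower. Of 11 tested, 4 fell and 1 rose (median -0.41). Cxcl1, a neutrophil attractant, stood at 18.3, 5.67 and 19.3 CPM in the live draining libraries and 116, 134 and 176 CPM in the live non-draining libraries, a separation of every library, and differed by -3.29 ± 0.46 (SE), adjusted p = 1.1e-05. Cxcl10, a CXCR3 ligand that draws activated T cells and is induced by interferon-γ, stood at 93.9, 135 and 88.7 CPM in the live draining libraries and 423, 443 and 310.1 CPM in the live non-draining libraries. Every draining library was lower, and the difference was -1.89 ± 0.41 (SE), adjusted p = 0.0037. Cxcl9, a related ligand, stood at 160.1, 146 and 113 CPM in the live draining libraries and 452, 77.7 and 939.9 CPM in the live non-draining libraries. Non-draining libraries A and C were high and B was below the draining ones, so the groups overlapped. The difference was -1.83 ± 0.39 (SE, adjusted p = 0.0033), and -1.11 without live non-draining library C, when it did not pass. Their UMIs were concentrated in a minority of cells. A Cxcl1 UMI at 2000 UMIs per cell was found in a median of 2.92% of live draining and 7.37% of live non-draining members (6.67% and 10.3% before thinning), and in 1.07% and 1.14% of B cells. A Cxcl10 UMI was found in 4.62% and 9.47% of members at that depth (14.5% and 12.6% before thinning) and in 5.35% and 2.06% of B cells, so that the live draining share in members was below that in B cells. For Cxcl9 the medians were 9.58% and 12.6% of members (25% and 18.9% before thinning) and 7.3% and 3.09% of B cells. Before thinning the live draining median was thus not the lower one for either ligand. The 10% of members richest in each transcript held a median of 100% and 100% of the Cxcl1 UMIs, 95.5% and 99.5% of the Cxcl10 UMIs and 90.9% and 97.0% of the Cxcl9 UMIs. With at most 30 cells per library the differences of Cxcl10 and Cxcl9 turned to 0.27 and 1.71 (adjusted p = 0.94 and 0.47 by edgeR), and neither passed. Ccl11, an eosinophil attractant, fell (-0.86, adjusted p = 1.2e-05). Ccl20, the CCR6 ligand, was the 1 that rose, from 1.05, 2.36 and 0 CPM in live non-draining libraries to 24.7, 23.8 and 19.3 CPM in live draining libraries. It was counted 168 and 2 times, a ratio of 21.5 (95% counting interval 5.86 to 179), and 4 times in naive members, against which the ratio was 28.7 (11 to 107). The study reported a rise of Ccl20 only in floor lymphatic endothelial cells. The part of free RNA from other cells in its rise in members was not tested.

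The promoters of 4 of these genes are shown because each gene fell in live draining members and belongs to a list with a known class of binding site. They are RefSeq windows on GRCm38.p6 from 250 bases before to 50 bases after the annotated start, 5′ to 3′ on the gene's strand, at chr17:34959189-34959488 (minus strand) for Hspa1b, chr11:58199306-58199605 (plus strand) for Igtp, chr5:92348840-92349139 (minus strand) for Cxcl10 and chr5:90890995-90891294 (plus strand) for Cxcl1. Capitals mark, in each window, the matches to 1 motif, named after the sequences and searched on both strands.
Hspa1b: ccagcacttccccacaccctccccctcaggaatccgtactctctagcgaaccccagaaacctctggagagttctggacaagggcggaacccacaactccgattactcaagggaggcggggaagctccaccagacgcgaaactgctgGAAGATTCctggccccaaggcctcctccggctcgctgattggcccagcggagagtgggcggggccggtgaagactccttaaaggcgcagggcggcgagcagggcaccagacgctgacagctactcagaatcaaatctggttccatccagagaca
Igtp: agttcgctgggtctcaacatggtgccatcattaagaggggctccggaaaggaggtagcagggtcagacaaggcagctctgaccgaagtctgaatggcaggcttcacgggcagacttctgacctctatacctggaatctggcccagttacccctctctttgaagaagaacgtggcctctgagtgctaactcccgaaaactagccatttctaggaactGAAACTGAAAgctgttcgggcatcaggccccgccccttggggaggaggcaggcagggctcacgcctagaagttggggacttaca
Cxcl10: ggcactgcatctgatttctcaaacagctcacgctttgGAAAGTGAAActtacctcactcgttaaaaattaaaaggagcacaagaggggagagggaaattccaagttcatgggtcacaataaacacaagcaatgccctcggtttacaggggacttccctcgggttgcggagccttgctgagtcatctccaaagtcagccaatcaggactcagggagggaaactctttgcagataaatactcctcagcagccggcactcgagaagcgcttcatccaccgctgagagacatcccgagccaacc
Cxcl1: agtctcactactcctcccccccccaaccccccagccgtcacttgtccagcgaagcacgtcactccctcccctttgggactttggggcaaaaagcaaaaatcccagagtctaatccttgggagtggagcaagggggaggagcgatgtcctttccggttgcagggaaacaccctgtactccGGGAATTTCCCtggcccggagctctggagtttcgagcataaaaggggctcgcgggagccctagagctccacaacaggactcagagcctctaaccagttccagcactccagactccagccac
In Hspa1b the capitals mark GAANNTTC, paired units of the heat shock element, 104 bases before the start. In Igtp and Cxcl10 they mark GAAA, any 2 bases and GAAA, the core of the interferon-stimulated response element, 34 and 213 bases before the start, and the Cxcl10 window also holds a match to the kappa B motif, which is left in lower case. In Cxcl1 they mark overlapping matches to the kappa B motif, searched as GGGA, any 2 bases and TTCC and, as its reverse complement, GGAA, any 2 bases and TCCC, which begin 71 and 70 bases before the start.

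A match is a description of the letters, not of a bound site. Of 32851 promoter windows of the same length, 15.1% held the heat shock motif, 3.44% the interferon motif and 1.47% the kappa B motif. Of the 14 heat shock genes tested, 10 had a window and 9 of these held the heat shock motif, among them 4 of the 5 with a window that fell. Of the 21 interferon-γ genes tested, 13 had a window and 9 held the interferon motif, among them 6 of the 8 with a window that fell. The kappa B motif was in 2 of 5 inflammatory chemokine windows, both of them among the 3 that fell. The Hspa1a and Hspa1b windows share 296 of 300 bases.

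Among the factors by which T zone cells hold and sustain lymphocytes, few passed. Of 19 homeostatic chemokines and niche factors tested, 3 fell and 1 rose (median -0.23), and 1 fell without live draining library B. Ccl21a stood at 21196, 22633 and 21954 CPM in the live draining libraries and 19414, 22626 and 24238 CPM in the live non-draining libraries, overlapping, with a difference of -0.01 ± 0.11 (SE, adjusted p = 0.98) that did not pass. Ccl19 differed by -0.16 ± 0.14 (SE, adjusted p = 0.61) and Cxcl13 by 0.89 ± 0.38 (SE, adjusted p = 0.21), and neither passed. Il7 stood at 287, 210.3 and 285 CPM in the live draining libraries and 336, 415 and 444 CPM in the live non-draining libraries and fell by 0.59 ± 0.13 (SE, adjusted p = 0.003), the draining libraries all lower. Cxcl12 differed by -0.31 ± 0.08 (SE, adjusted p = 0.021), a call lost without live draining library B or live non-draining library B (the smallest change in its leave-out range was -0.20). Kitl, stem cell factor, differed by -0.40 ± 0.12 (SE, adjusted p = 0.046) and lost its call without any 1 of 5 libraries. Grem1 rose by 0.50 ± 0.11 (SE, adjusted p = 0.0036), and by 0.36 without live non-draining library A, when it did not pass. Il33, an alarmin stored in the nuclei of these cells, stood at 686, 736 and 827 CPM in the live draining libraries and 544, 544 and 586 CPM in the live non-draining libraries and rose by 0.43 ± 0.09 (SE), adjusted p = 0.0018.

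**Figure D4:**
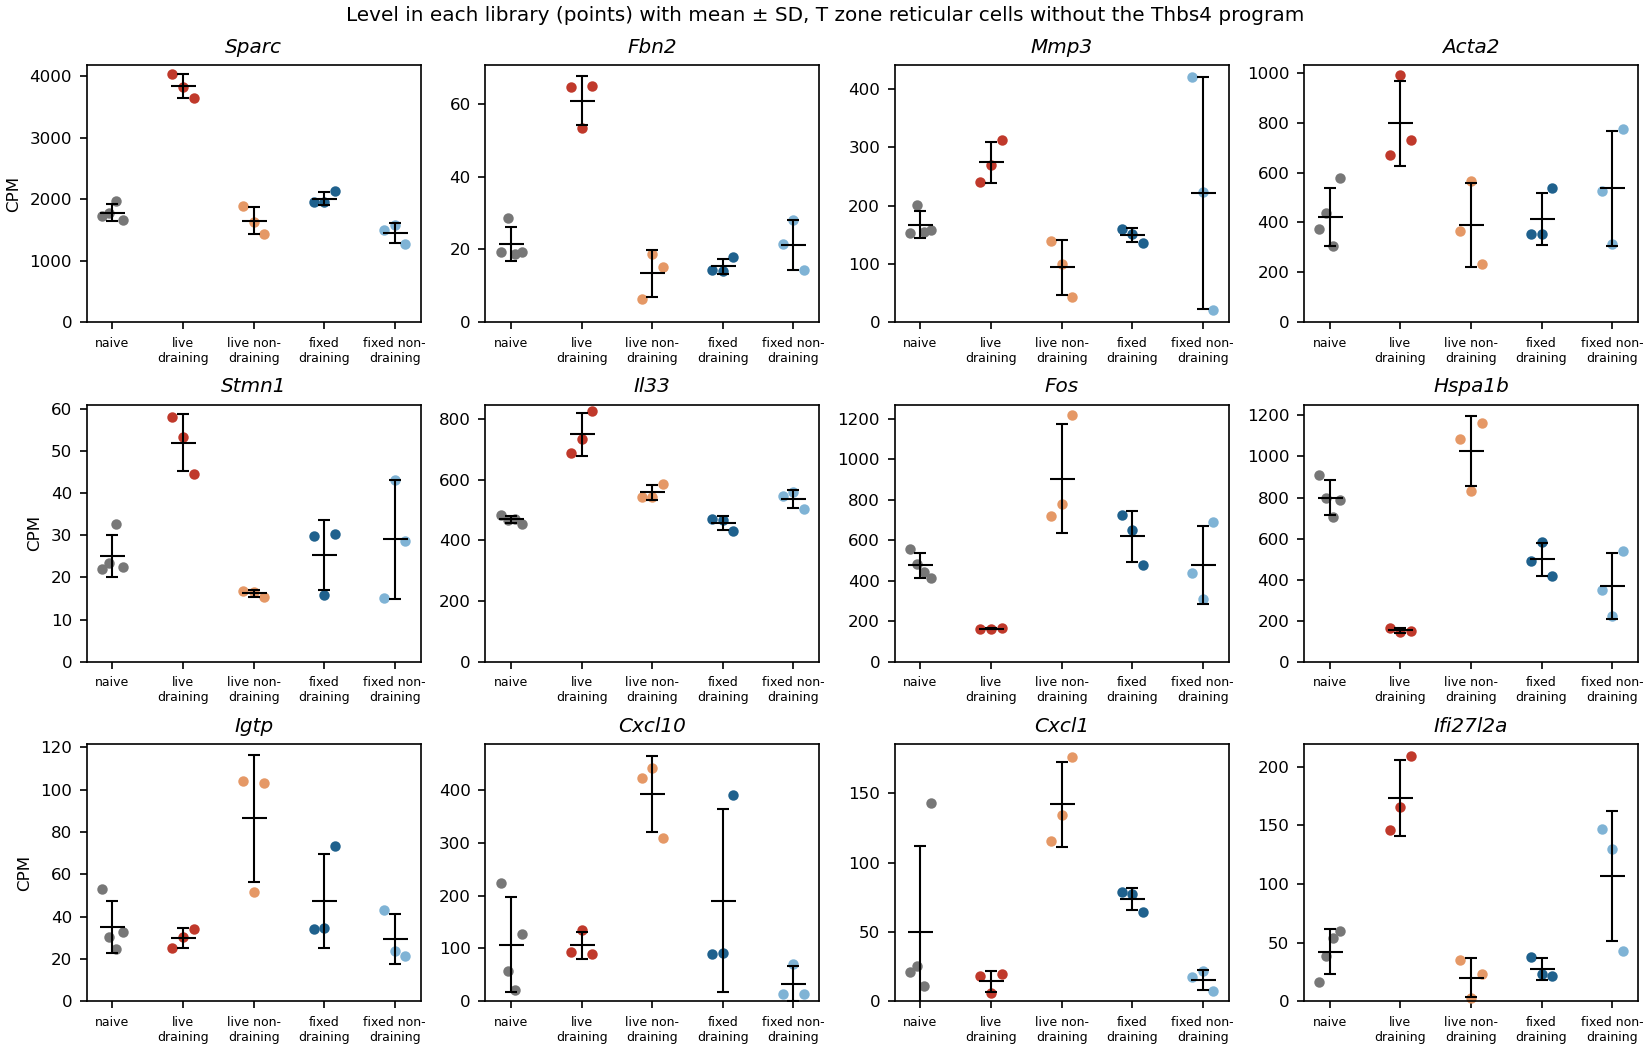
CPM per library, scaled as in the comparisons of groups, of Sparc, Fbn2, Mmp3, Acta2, Stmn1, Il33, Fos, Hspa1b, Igtp, Cxcl10, Cxcl1 and Ifi27l2a in the members of the 5 groups, with points for libraries and bars for the mean ± SD. Live draining points lie above live non-draining points for the first 6 genes and Ifi27l2a, and below them for Fos, Hspa1b, Igtp, Cxcl10 and Cxcl1.

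The remaining lists had few calls. Of 20 MHC class I presentation genes 1 rose and 2 fell (median -0.22), of 14 genes of the IL-33, IL-1 and IL-6 family 1 rose and 3 fell, 1 of them without live non-draining library C, and Lif, a cytokine of the IL-6 family, was among those that fell (-2.07, adjusted p = 0.00029). Of 11 genes of the IGF axis 3 fell, Igf2, Igfbp3 and Igfbp5, with log2 differences of -2.50, -1.11 and -0.81. Of 23 endoplasmic reticulum folding genes 4 rose, 1 without live draining library B. Of 11 genes of T cell restraint and adhesion 1 fell, Ptgs2, which makes prostaglandin precursors (-3.07, adjusted p = 0.0038). Of 19 Wnt and BMP modulators 2 rose and 1 fell, of 18 NF-kB genes 2 fell, of 13 complement genes 2 fell and of 16 circadian clock genes 2 fell, Hlf and Nr1d1. Of 24 cystine, glutathione and NRF2 target genes 2 rose and none fell, of 17 genes of the ATF4 response 1 rose and 1 fell, and of 27 ribosome biogenesis genes none rose or fell.

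Few genes passed in the members after fixed tumor cells. The control libraries of this comparison held only 49, 49 and 18 members, and its power was not compared with that of the live comparison. In fixed draining against fixed non-draining nodes, 18 of 10931 genes (0.165%) passed, 7 higher and 11 lower, and 691 had an unadjusted p under 0.05. The count was 2, 4 and 10 without fixed draining library A, B or C, 7, 28 and 8 without fixed non-draining library A, B or C, and 8 without live draining library C. Matrix genes were among the few that rose: Sparc stood at 1952, 1947 and 2129 CPM in fixed draining and 1493, 1584 and 1269 CPM in fixed non-draining libraries and differed by 0.45 ± 0.09 (SE), adjusted p = 0.038. Draining libraries were higher in all 3, and Col5a1 and Fn1 were the other 2 of the 28 fibrillar matrix genes that rose (0.60, adjusted p = 0.043 and 0.54, adjusted p = 0.047). Serpinf1, an antiangiogenic serpin, and Dpt, a matrix protein that binds decorin, rose by 0.74 ± 0.15 (SE, adjusted p = 0.038) and 0.68 ± 0.14 (SE, adjusted p = 0.038). Hsph1 rose by 1.27 ± 0.25 (SE, adjusted p = 0.038). Its fixed non-draining level lay below naive, as given further on. Of the 22 immediate early genes and the 21 interferon-γ genes none passed here (medians 0.34 and 0.35).

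Ccl21a was lower in fixed draining than in fixed non-draining members. It stood at 22509, 19166 and 19983 CPM in fixed draining and 29276, 29342 and 34998 CPM in fixed non-draining libraries, without overlap, and differed by -0.60 ± 0.11 (SE), adjusted p = 0.017. The call was lost without fixed draining library B or fixed non-draining library C, where the lowest and highest leave-out values were -0.67 and -0.51. The fixed draining libraries overlapped the naive libraries for Ccl21a, and the fixed non-draining libraries lay above them, as given further on. Ifi27l2a, which rose after live tumor, was lower here, from 147, 129.7 and 43.0 to 37.8, 22.8 and 21.1 CPM, by 2.17 ± 0.34 on the log2 scale (SE, adjusted p = 0.0036), and lost its call without fixed non-draining library A. Its fixed draining values lay inside the range of the naive libraries given above, and fixed non-draining libraries A and B lay above that range. Cyp26b1, which breaks down retinoic acid, and Gm16685 fell by 0.59 and 0.58. Sparc, Fn1, Hsph1, Serpinf1, Dpt, Col5a1, Cyp26b1 and Gm16685 each lost their call without at least 4 of the libraries in turn.

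The live and fixed effects differed for 140 of 10931 genes (1.28%), 64 with a larger and 76 with a smaller log2 change after live tumor, by the interaction term of the same fit. Most fixed libraries differed from the live ones in the last digits of the library codes, which may mark a batch. With these digits as a covariate the count was 134. Immediate early genes made up 15 of the 76 (15 of 22 tested). Inflammatory chemokines and interferon-γ genes each gave 6, of 11 and 21 tested, and heat shock chaperones 5 of 14. The difference of the Fos effects was -2.97 ± 0.25 (SE), adjusted p = 2.4e-10, and that of Hspa1b -3.35 ± 0.22 (SE), adjusted p = 7.9e-13. Fixed draining and fixed non-draining libraries held 725, 652 and 477 CPM and 437, 311 and 688 CPM of Fos, and 493, 581 and 419.8 CPM and 347, 220.4 and 538 CPM of Hspa1b. Every one of these lay above the live draining libraries for both genes. The differences for Cxcl1, Cxcl10, Cxcl9 and Dnajb1 were -5.34 ± 0.82 (SE, adjusted p = 0.0001), -4.15 ± 0.81 (SE, adjusted p = 0.0029), -3.76 ± 0.67 (SE, adjusted p = 0.00089) and -3.47 ± 0.46 (SE, adjusted p = 6.2e-06).

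On the other side, Sparc had a larger live than fixed change, by 0.76 ± 0.13 (SE), adjusted p = 0.00055, while 3 of 28 fibrillar matrix genes and 4 of 30 actin genes passed this test, 1 of the actin genes without fixed draining library B. Fbn2, Mmp3 and Stmn1 differed by 2.98 ± 0.48 (SE, adjusted p = 0.00021), 2.28 ± 0.37 (SE, adjusted p = 0.00021) and 1.89 ± 0.47 (SE, adjusted p = 0.029), and Ifi27l2a by 5.00 ± 0.48 (SE, adjusted p = 7.9e-09). The Ifi27l2a difference includes its fall in the fixed comparison, where fixed non-draining libraries A and B lay above every naive library. Fbn2 stood at 14.4, 14.1 and 17.8 CPM in fixed draining and 21.5, 28.1 and 14.3 CPM in fixed non-draining libraries, below the live draining libraries in all 6. Grem1 and Il33 differed by 0.81 ± 0.16 (SE, adjusted p = 0.0021) and 0.68 ± 0.13 (SE, adjusted p = 0.0021). For Ccl21a the difference was 0.59 ± 0.15 (SE, adjusted p = 0.039) and lost its call without any 1 of 8 libraries, and that of Stmn1 without any 1 of 6.

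Against naive nodes, the live draining members had the most calls of the 4 inoculated groups. Of 10931 genes, 1158 (10.6%) passed, 675 higher and 483 lower, 695 without live draining library C and 719 without live draining library B. This comparison shares the live draining libraries with the one above. Of the 28 fibrillar matrix genes 15 rose and 1 fell (median 0.45), and of the 44 oxidative phosphorylation genes 30 rose and none fell (median 0.29), 12 of them without live draining library B. Of the 22 immediate early genes 13 fell and 1 rose (median -0.55), and of the 14 heat shock genes 6 fell (median -0.43). Sparc, Lum and Fbn2 rose by 1.11 ± 0.08 (SE, adjusted p = 1.0e-11), 1.59 ± 0.18 (SE, adjusted p = 1.4e-07) and 1.49 ± 0.16 (SE, adjusted p = 3.5e-08). Aqp1, a water channel, stood at 605, 622 and 607 CPM in live draining and 236, 152, 196 and 195 CPM in naive libraries, without overlap, and rose by 1.65 ± 0.10 (SE), adjusted p = 2.9e-14. Serpinb1a, an inhibitor of neutrophil proteases, rose by 1.65 ± 0.14 (SE, adjusted p = 1.7e-10) and Ifi27l2a by 2.07 ± 0.20 (SE, adjusted p = 6.3e-09).

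Hspa1a, Dnajb1 and Hspa1b fell against naive by 2.55 ± 0.12, 2.42 ± 0.22 and 2.39 ± 0.14 on the log2 scale (SE), and Fos by 1.55 ± 0.16 (SE, adjusted p = 1.3e-08). Gm8696, a predicted gene whose reads may be shared with a copy, differed by -2.52 ± 0.23 (SE, adjusted p = 9.3e-10). The interferon-γ list was near naive in live draining members, with 2 of 21 lower and none higher (median -0.09). Cxcl13, which had not passed against live non-draining nodes, stood at 1247, 1186 and 2312 CPM in live draining and 700.3, 525, 531 and 409 CPM in naive libraries and rose by 1.54 ± 0.35 (SE, adjusted p = 0.0033), but by 1.16 without live draining library C, when it did not pass. A Cxcl13 UMI at 2000 UMIs per cell was found in a median of 45.4% of live draining and 31.9% of naive members, and in 43.0% and 19.9% of B cells, whose share was higher in live draining nodes as well. The 10% of members richest in it held 81.0% of its UMIs in live draining and 68.3% in naive libraries (medians), and the part of free RNA in this rise was not tested.

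Live non-draining members, the controls of the live comparison, themselves differed from naive in 46 of 10931 genes (0.421%), 44 higher and 2 lower. Of the 22 immediate early genes 14 rose (median 0.79), 10 of them without live non-draining library C, and of the 21 interferon-γ genes 5 rose (median 0.65), 2 of them without live non-draining library A. MHC class II genes rose in 3 of 6 (median 0.81) and in none without live non-draining library C. Fos differed by 0.92 ± 0.15 (SE), adjusted p = 0.00061. Igtp, at 52.9, 30.1, 24.9 and 32.6 CPM in naive libraries, differed by 1.35 ± 0.25 (SE, adjusted p = 0.0038), a call lost without live non-draining library A (lowest leave-out value 1.16). Cxcl10, Ier2 and Nfkbiz, an NF-kB cofactor, rose by 1.84 ± 0.40 (SE, adjusted p = 0.02), 1.57 ± 0.34 (SE, adjusted p = 0.017) and 1.28 ± 0.21 (SE, adjusted p = 0.00048), and Tppp3 and Serpinb6b fell (-0.90, adjusted p = 0.02 and -0.64, adjusted p = 0.03). Each of these 5 lost its call without at least 1 library, Nfkbiz only without live non-draining library A. Igkc, an immunoglobulin chain of B cells, rose by 2.16 ± 0.30 (SE, adjusted p = 8.3e-05), with 267 CPM in live non-draining library A, and by 0.82 without that library, when it did not pass. Against naive, many immediate early genes thus lay higher in live non-draining members and lower in live draining members, in comparisons that share the naive libraries.

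Few genes separated the fixed groups from naive. Fixed draining members differed in 52 of 10931 genes (0.476%), 32 higher and 20 lower, and fixed non-draining members in 48 (0.439%), 28 higher and 20 lower. The first count was 31, 32 and 27 without fixed draining library A, B or C, 34 without live draining library C and 34 without naive library B, and the second was 25 without fixed non-draining library A. With the last digits of the library codes, which may mark a batch, as a covariate, the counts were 28 and 24. Most fixed libraries shared these digits with naive library A and with no other naive library. Cyr61, a matricellular YAP target, and mt-Nd3 rose in fixed draining members by 1.37 ± 0.20 (SE, adjusted p = 0.00021) and 1.17 ± 0.20 (SE, adjusted p = 0.0012). Gm8696 differed by -1.66 ± 0.22 (SE, adjusted p = 7.3e-05) and Atp1b1, a sodium pump subunit, by -0.92 ± 0.17 (SE, adjusted p = 0.0059), the latter lost without fixed draining library A. Slc5a3 and Mrps6, which overlap on the genome and may share reads, differed by -0.92 and -0.82, and Mrps6 lost its call without any 1 of 4 libraries. Erdr1 and the pseudogene Ccl19-ps1 rose in both groups, by 0.91 and 0.76 in fixed draining and 1.22 and 0.96 in fixed non-draining members, which share the naive libraries. Reads of Ccl19-ps1 may come from Ccl19, and it lost its call without fixed draining library C and without fixed non-draining library A respectively.

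Heat shock genes also fell in fixed non-draining members, 5 of 14 against 3 of 14 in fixed draining members. Hspa1a and Hspa1b differed from naive by -1.32 ± 0.14 (SE, adjusted p = 5.2e-07) and -1.28 ± 0.16 (SE, adjusted p = 1.9e-05), and Hsph1 by -1.74 ± 0.24 (SE, adjusted p = 4.3e-05). Dnajb1 differed by -1.75 ± 0.36 (SE, adjusted p = 0.016) and lost its call without fixed non-draining library A or B. Ccl21a rose in fixed non-draining members by 0.72 ± 0.10 (SE, adjusted p = 4.6e-05). Its naive libraries stood at 21504, 17521, 22281 and 14440.0 CPM, below the 3 fixed non-draining libraries. Il4i1, an amino acid oxidase, and Vmp1, a membrane protein of autophagy, rose by 1.52 ± 0.32 (SE, adjusted p = 0.017) and 0.87 ± 0.18 (SE, adjusted p = 0.013), both lost without fixed non-draining library A, where the lowest leave-out value of each was 0.58.

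The live effect in members was then set against that in the other stromal classes, fitted with class and group together and the library as a block. T zone cells with the Thbs4 program changed in 323 of 10575 genes (3.05%) between live draining and live non-draining nodes, and the effect differed from that in members for 58 of 11285 genes (0.514%), 23 with a larger and 35 with a smaller log2 change in members. The count was 25 without live non-draining library A and 34 and 36 without live draining library A or C. Ifi27l2a was the widest of those named, with a change of 2.83 in members and -0.66 in Thbs4 program cells, a difference of 3.43 ± 0.37 (SE, adjusted p = 3.5e-07). Ly6a, the Sca-1 antigen that interferons induce, changed by 0.89 in members and -1.0 in Thbs4 program cells, a difference of 1.89 ± 0.31 (SE, adjusted p = 0.00063). Cxcl1 changed by -3.29 in members and 0.16 in Thbs4 program cells, a difference of -3.39 ± 0.58 (SE, adjusted p = 0.00083). Pde1b and Parp4 differed by 1.40 and 1.32, and Dnajb1, Adh1, a retinol dehydrogenase, and Zfp36 by -1.97, -1.86 and -1.72. Pde1b, Parp4, Dnajb1, Adh1 and Zfp36 each lost their call without any 1 of 2 to 5 libraries, whereas Ifi27l2a, Ly6a and Cxcl1 kept it without each library in turn.

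Medullary reticular cells changed in 1414 of 10770 genes (13.1%), and their effect differed from that in members for 149 of 11450 genes (1.3%), 64 with a larger and 85 with a smaller change in members. The count was 62 and 63 without live non-draining library A or C and 70 and 96 without live draining library A or B. Adm, the vasodilator peptide adrenomedullin, changed by 0.31 in members and -2.29 in medullary cells, a difference of 2.61 ± 0.43 (SE, adjusted p = 0.00023). Cxcl10 went in opposite directions, by -1.89 in members and 1.85 in medullary cells, a difference of -3.66 ± 0.42 (SE, adjusted p = 1.5e-06). Chl1, a neural adhesion molecule, changed by 0.38 in members and 2.23 in medullary cells, a difference of -1.86 ± 0.23 (SE, adjusted p = 3.2e-06). Fbln1, a fibulin of elastic fibers, differed by 1.82 ± 0.35 (SE, adjusted p = 0.0024) and Cxcl1 by -2.67 ± 0.54 (SE, adjusted p = 0.0037), calls lost without live non-draining library A and without live non-draining library C respectively. Cxcl9 differed by -2.16 ± 0.57 (SE, adjusted p = 0.042) and lost its call without any 1 of 3 libraries, with leave-out values from -4.20 to -0.92. The B cell transcripts Ighm and Igkc differed by 2.20 and 1.76, but by 0.50 and -0.14 without live non-draining library A, the library with the highest B cell marker sum in members (131 CPM).

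**Figure D5:**
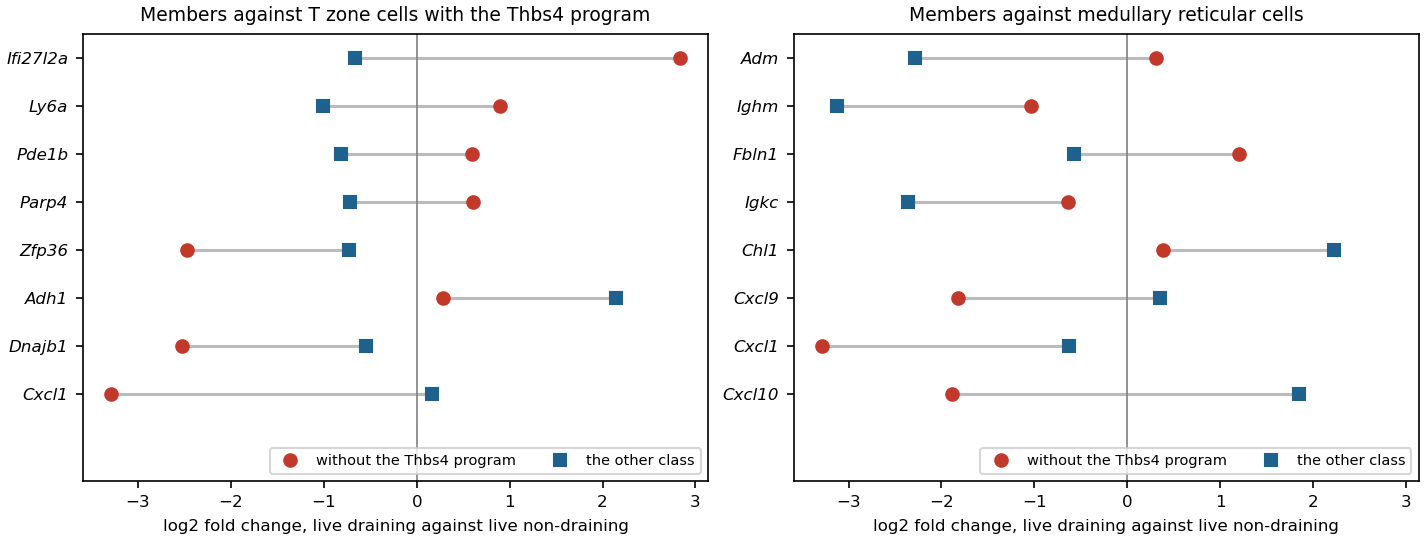
Log2 change between live draining and live non-draining nodes in members and in T zone cells with the Thbs4 program (8 genes) or medullary reticular cells (8 genes), each line joining 1 gene in both classes. Ifi27l2a and Cxcl1 part most from Thbs4 program cells, and Cxcl10 and Cxcl1 most from medullary cells.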

How the data were processed

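UMI counts per gene and cell were deposited by the authors as 1 matrix per library, produced by Cell Ranger 3.0.1 with the mm10 build per the labels. The deposited counts were raw, covered 1575 to 8039 barcodes per library and were not pooled. Gene symbols were those of the files, and 40606 of 48440 gene IDs matched the reference annotation (GENCODE vM21, GRCm38), which gave positions. Cells with 200 to 6000 genes and at most 30% mitochondrial UMIs were kept, gated cells had at least 2000 UMIs, and classes were set by the sums of marker UMIs given above, with no clustering and no doublet caller.

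Counts of members were summed per library and tested in Python 3.11.15 and R 4.3.3 with edgeR 4.0.16 (quasi-likelihood test, TMM factors, filterByExpr by group, Benjamini-Hochberg over all genes tested). All 16 libraries and 5 groups entered 1 fit with contrasts. CPM per library in comparisons of groups were edgeR's, scaled by TMM factors on the genes tested, and other CPM were unscaled. Differences between classes used sums per library and class with the library as a block and a class by group term. Genes were named by the largest changes among those that passed, averaged 5 or more in log2 CPM and, for a comparison of groups, did not overlap (8 each way in the live comparison and 4 each way in the others), by the smallest p of up to 4 genes per list, and because the study names them. Some further list members, among them Mki67 and Igf2, were added after their values were seen. The members and lists were chosen with earlier results of these data known. Marker levels between classes were compared on log2(CPM + 1) without a printed test, since the same cells' values set the classes. The last 2 digits of the library codes in the labels, which may mark a batch, were tried as a covariate. The fixed non-draining libraries, fixed draining libraries A and B and naive library A shared an ending that no live and no other naive library had. Inoculum and a batch marked by these digits therefore cannot be fully told apart. The fits were tested on simulated data with known changes. DESeq2 1.42.0, other normalizations, filters, gates, equal cell numbers and equal depth were the alternatives, and a rule without Igfbp2 was added after the data were seen. Promoter windows came from RefSeq tables on GRCm38.p6. 1 result is not reported here.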

Additional observations from a re-analysis of the deposited data

Results flagged for a closer look

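In naive nodes, 1 library stood apart from the other 3 for 5 of 71 sets of values checked, where chance gives about 1 in 20. The sets were levels of named genes and, per library, the members, their share, their median UMIs and their median mitochondrial share. All 5 were genes. On the TMM-scaled CPM of the group comparisons, naive library B was high for Fbn2 (28.7 CPM against 18.9 to 19.2 in the others), Mmp3 (201 against 153 to 159) and Col5a1 (229 against 191 to 196), naive library C for Stmn1 (32.6 against 22 to 23.5) and naive library D for Cxcl1 (143 against 11.1 to 25.7).

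Effects that differed between inocula or classes, each by the interaction term, were the following. The live and fixed draining effects differed for 140 genes. Among those named, the live log2 change was the larger for Ifi27l2a (5.00), Fbn2 (2.98), Mmp3 (2.28), Stmn1 (1.89), Grem1 (0.81), Sparc (0.76), Il33 (0.68) and Ccl21a (0.59). It was the smaller for Cxcl1 (-5.34), Cxcl10 (-4.15), Cxcl9 (-3.76), Dnajb1 (-3.47), Hspa1b (-3.35) and Fos (-2.97). Ifi27l2a and Ccl21a also fell in the fixed comparison, and those falls are part of their differences.

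The live effect differed between members and T zone cells with the Thbs4 program for 58 genes. The differences of the named genes were 3.43 for Ifi27l2a, 1.89 for Ly6a, 1.40 for Pde1b, 1.32 for Parp4, -3.39 for Cxcl1, -1.97 for Dnajb1, -1.86 for Adh1 and -1.72 for Zfp36. It differed between members and medullary reticular cells for 149 genes, by 2.61 for Adm, 2.20 for Ighm, 1.82 for Fbln1, 1.76 for Igkc, -3.66 for Cxcl10, -2.67 for Cxcl1, -2.16 for Cxcl9 and -1.86 for Chl1.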

How the results depend on the processing

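Counts of genes that passed were compared with those of the main fits, which were 460 (live), 18 (fixed), 140 (live minus fixed), 1158 (live draining against naive), 46 (live non-draining against naive), 52 (fixed draining against naive), 48 (fixed non-draining against naive), 58 (members against Thbs4 program cells) and 149 (members against medullary cells). Leaving out 1 library at a time gave 286 to 488, 2 to 28, 94 to 169, 695 to 1296, 31 to 56, 27 to 61, 25 to 56, 25 to 74 and 62 to 157 in that order. With at most 30 cells per library, which left 6522 genes tested, the first 7 counts were 63, 1, 37, 59, 0, 5 and 8, and for live non-draining against naive, at 0 in edgeR, 295 genes had an unadjusted p under 0.05 and the DESeq2 count on all cells was 48. With cells thinned to 2000 UMIs, which left 5441 genes for the first 7, the counts were 123, 2, 40, 190, 13, 17, 16, 17 and 16. With no UMI of Il13ra2, Thbs4 and Stc2 allowed, the live count was 221, the fixed 9, live minus fixed 77, live non-draining against naive 29 and fixed draining against naive 33. With no filter on low counts it was 96 for fixed, 251 for live minus fixed, against naive 118 for live non-draining, 152 for fixed draining and 144 for the fixed non-draining group, and 148 for members against Thbs4 program cells. A T zone sum of at least 2 gave 1 for fixed and 29 for fixed non-draining against naive, and of at least 5 gave 11 for fixed and 33 and 24 for fixed draining and fixed non-draining against naive. The library code digits as a covariate gave 763 for live draining, 28 for fixed draining and 24 for fixed non-draining against naive, and DESeq2 gave 78 for the last. Beyond the smaller number of genes or cells tested, the cause was not tested.

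Deviations of draining and non-draining libraries from their group means correlated by -0.04 to 0.04 for the same letter and by -0.03 to 0.04 for different letters. With few members in some libraries, this check could not tell whether the letters mark mice. With the letter as a replicate block the fixed count was 30, and the live count was 437.

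Of 121 values of named genes past the threshold, 36 stayed past it in the same direction under every alternative and 79 without each library in turn. With at most 30 cells per library Cxcl9 reversed to 1.71 in the live comparison and 1.28 in live minus fixed, and Cxcl10 to 0.27 in the live comparison. Igkc ran from -0.14 (without live non-draining library A) to 2.12 in members against medullary cells when 1 library was left out.

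The member share was 16.8% in naive, 21.9% in live draining, 17.7% in live non-draining and 23.4% in fixed draining nodes with a T zone sum of at least 2, and 11.6, 15.4, 11.9 and 17.7%, and 11.7% in fixed non-draining nodes, with at least 5. With cells thinned to 2000 UMIs before the same limits were applied, it was 11.9% in naive, 13.9% in live draining and 19.4% in fixed draining nodes. Without Igfbp2 in the rule the live draining share was 17.9%, and with at most 10% mitochondrial UMIs the fixed draining share was 22.6%. Fixed non-draining library C held 18 members.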
